A study of Mus musculus with 5 samples.

Results

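The genes described here encode the machinery that copies chromosomal DNA in S phase of the cell cycle. They were taken as a list of 43 gene symbols covering the replicative helicase, the polymerases and other fork proteins, nucleotide supply, origin licensing, chromatin assembly on new DNA and cyclin E. Every probe set annotated to 1 of these symbols and to no other gene was read on the arrays of days 2, 6, 9, 12 and 15. Of the 43 genes, 42 had a probe set of their own, with 89 probe sets in all, and Chaf1a, the large subunit of chromatin assembly factor 1, had none in the annotation used here. All 42 passed the intensity filter, a mean of at least 105.9 over the 5 arrays, that left 11075 of 18193 genes. The rule for choosing them uses no measured value, but the genes were listed with earlier results of these data known.

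The cells were primary chondrocytes, the cells that make cartilage, freed by enzyme digestion from the rib cages of E18.5 mouse embryos (embryonic day 18.5) of strain FVB. They were plated densely on gelatin-coated dishes in a medium that held 10% fetal bovine serum, ascorbic acid and 10 mM beta-glycerophosphate, and they received this same medium at every time point. The groups were cultures of 2, 6, 9, 12 and 15 days, with 1 array for each day, and the design asked how expression differed with time in culture. Because no day had a second array, a difference between 2 days has no replicate error and was not tested, and a threshold of 2-fold serves as a description. A gene past it in either direction is called 2-fold lower or 2-fold higher. The labels do not say whether the dishes came from 1 isolate of cells, so the spread about any trend may be technical.

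Before S phase, the origin recognition complex (Orc1 to Orc6) with Cdc6 and Cdt1 loads rings of Mcm2 to Mcm7 onto DNA, a step called licensing, and geminin (Gmnn) blocks a further round by binding Cdt1. Cyclin E with its kinase helps start S phase, when Cdc45 and the GINS proteins join the Mcm ring as the working helicase and primase with polymerases alpha, delta and epsilon makes new strands. Many of these genes are known targets of E2F transcription factors, which the retinoblastoma proteins hold in check in resting cells. In growing cartilage, chondrocytes multiply in the proliferative zone and leave the cell cycle as they enlarge.

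The promoters are shown first because E2F motifs are known from promoters of this gene group. RefSeq promoters of build GRCm38.p6, running from 250 bases before to 50 bases after the start of transcription, were matched by symbol to 35 of the 43 genes, which had 41 such promoters. Mcm4, Gins1, Gins2, Prim2, Pole, Rfc2, Gmnn and Ccne2 had no entry. Both strands were searched for the E2F motif, spelled TTTCCCGC, TTTCGCGC, TTTGCCGC or TTTGGCGC. They were also searched for CCAAT and for the cell cycle homology region (CHR, TTTGAA or TTCGAA), an element known from mitotic genes. On opposite strands, E2F matches can overlap each other.

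An E2F match was found in 13 of the 35 genes (37.1%), beside 704 of the 27025 genes with a promoter in the table (2.6%). By role, it was found in 4 of 6 helicase genes (Mcm3, Mcm5, Mcm6 and Mcm7), 5 of 15 polymerase and fork genes (Pola1, Pold1, Pole2, Rfc3 and Lig1), and 3 of 5 licensing genes (Orc1, Cdc6 and Cdt1). Uhrf1 was the only 1 of 4 chromatin and cyclin genes with a match, and none of the 5 nucleotide supply genes had one. CCAAT was found in 21 of the 35 genes, all 6 helicase genes among them, beside 41.1% of all genes, and CHR in 6 (17.1%), beside 21.7%. A match is a run of letters and not a measured binding site, and a gene without one may hold other forms of the motif.

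Apart from Mcm6, which follows, the E2F matches whose flanks also lay wholly before the start of transcription are printed 5′ to 3′ on the gene's strand, with 12 bases on each side and the motif in capitals, so that the shared core can be seen across roles. Mcm5 at chr8:75109344-75109379 (plus strand) held an overlapping pair, Mcm7 lay at chr5:138172029-138172060 (minus), Pola1 at chrX:93632274-93632305 (minus), Orc1 at chr4:108579415-108579446 (plus), Cdc6 at chr11:98908001-98908032 (plus) and Uhrf1 at chr17:56304116-56304147 (plus).
Mcm5: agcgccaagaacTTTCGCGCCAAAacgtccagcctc
Mcm7: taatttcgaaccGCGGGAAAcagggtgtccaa
Pola1: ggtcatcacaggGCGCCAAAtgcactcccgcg
Orc1: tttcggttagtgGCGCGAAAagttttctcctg
Cdc6: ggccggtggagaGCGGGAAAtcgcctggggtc
Uhrf1: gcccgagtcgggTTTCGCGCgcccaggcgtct

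For 2 genes that were both over 2-fold lower at day 9 than at day 2, the whole 250 bases before the start are shown, because their motif content differs. Mcm6, a helicase subunit, at chr1:128359706-128359955 (minus strand), held 3 E2F matches, of which 1 pair overlaps, and 2 CCAAT matches, read as ATTGG. Rrm2, the small subunit of ribonucleotide reductase, at chr12:24708004-24708253 (plus strand), held no E2F match and 1 CCAAT match. The capitals mark these matches.
Mcm6: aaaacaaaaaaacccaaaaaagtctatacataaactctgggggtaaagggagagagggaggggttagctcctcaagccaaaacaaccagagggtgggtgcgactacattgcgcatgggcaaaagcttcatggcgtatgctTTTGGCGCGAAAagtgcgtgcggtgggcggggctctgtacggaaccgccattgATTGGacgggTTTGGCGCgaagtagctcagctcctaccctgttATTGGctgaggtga
Rrm2: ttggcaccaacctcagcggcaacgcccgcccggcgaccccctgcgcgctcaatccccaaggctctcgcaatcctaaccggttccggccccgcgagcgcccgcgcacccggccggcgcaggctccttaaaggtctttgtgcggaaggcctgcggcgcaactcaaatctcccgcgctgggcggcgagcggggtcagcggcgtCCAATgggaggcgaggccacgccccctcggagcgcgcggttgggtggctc

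**Figure D1:**
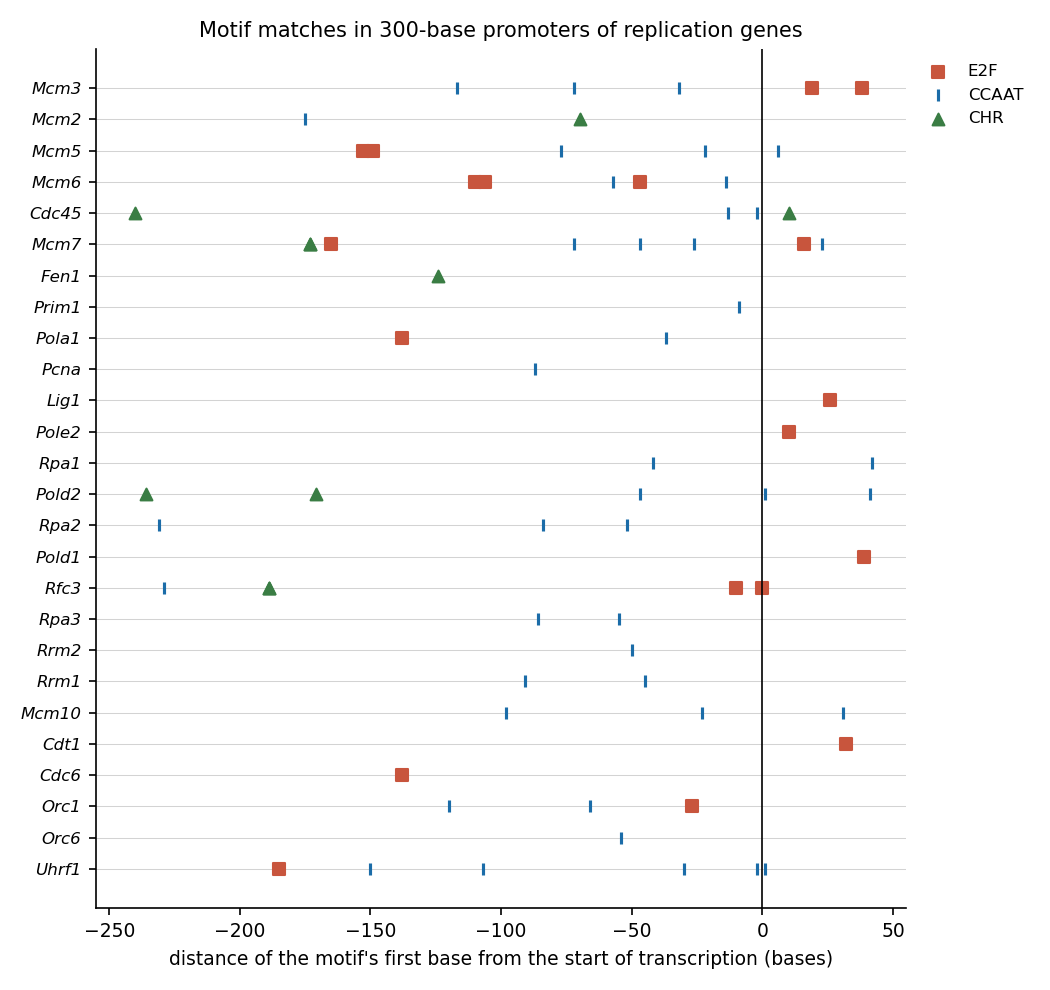
Motif matches in the RefSeq promoters (GRCm38.p6) of the genes that held at least 1 match, by distance in bases from the start of transcription at 0 (horizontal axis). Squares are E2F, bars CCAAT and triangles CHR matches. E2F matches stood in 13 of the 35 genes with a promoter, before and after the start.

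The median replication gene was lower on every later day than at day 2, most of all at day 9. On that day, 41 of 42 lay below their day 2 intensity, where 49.2% of all genes did. Intensity here is the deposited probe-set value on a linear scale, and a gene is read from its brightest probe set. For folds and log2 differences, values under a floor of 73.1 were raised to it. At day 9, 19 of the 42 were 2-fold lower than at day 2 and 0 were 2-fold higher, while of all genes 10.3% were lower and 15.1% higher by that measure. The median log2 difference at day 9 minus day 2 was -0.94 over the replication genes and 0.01 over all genes. The range ran from -2.0 in Rrm2 to 0.10 in Prim2, a primase subunit.

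Part of the difference was present by day 6. On that day, 35 of 42 lay below day 2, where 47.1% of all genes did. The median log2 difference was -0.34, beside 0.03 over all genes. Of the 42, 3 (Tyms, Rrm2 and Cdc6) were 2-fold lower, where 5.70% of all genes were. From day 6, all 42 were lower at day 9 by the brightest probe sets, with a median log2 difference of -0.53. Of all genes, 50.8% were lower, with a median of -0.01. Tyms was almost level (81.8 at day 6 and 81.5 at day 9). Mcm3, Mcm10 and Ccne1 were 2-fold lower at day 9 than at day 6, where 4.06% of all genes were. For Mcm3 none of the other probe sets reached 2-fold, and 1 was higher at day 9 (639.8, against 568.7 at day 6). At day 12, 16 were 2-fold lower than at day 2 (median -0.73, 11.4% of all genes), and at day 15, 14 were (median -0.69, 11.6% of all genes). No replication gene was 2-fold higher at day 15 than at day 2, where 16.2% of all genes were. These counts rest on the single day 2 array. Taking day 6 as the baseline gave 3 for day 9, 1 for day 12 and 4 for day 15. Of all 11075 genes, 450, 550 and 682 were 2-fold lower in these comparisons, shares not far from those counts.

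**Figure D2:**
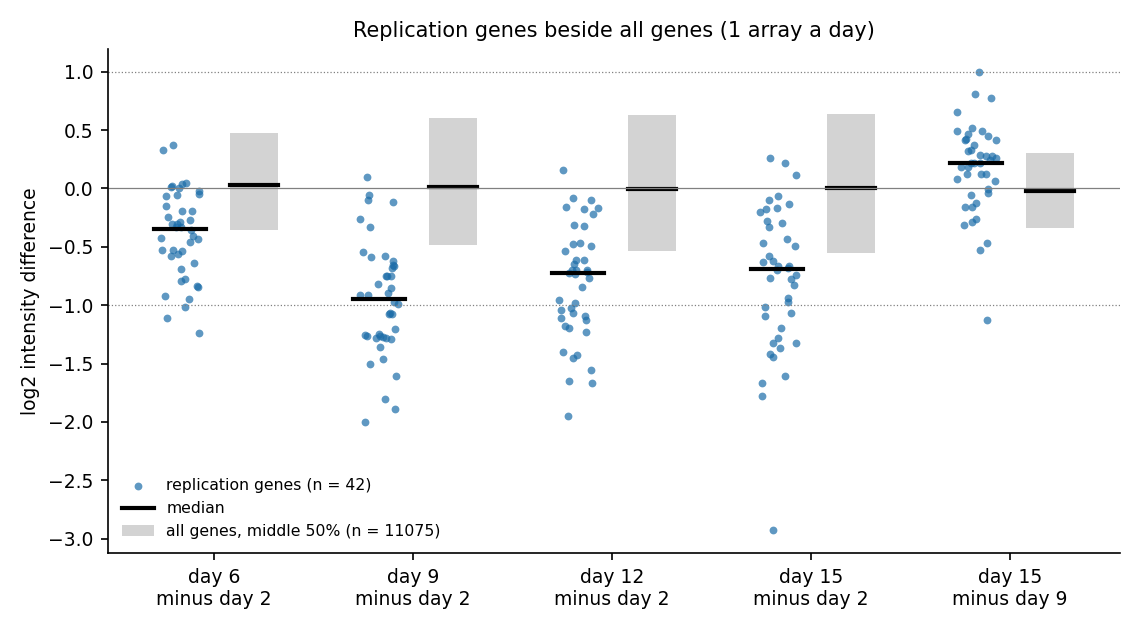
Log2 intensity differences between days (vertical axis) for the 42 replication genes (points, with a bar at the median) and, to their right, the middle 50% of all 11075 genes with its median (grey box and bar), with 1 array a day. By brightest probe sets, the replication genes' median was lowest at day 9 minus day 2 (-0.94) and was 0.22 at day 15 minus day 9, while the medians of all genes stayed near 0.

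The day of each gene's highest and lowest value is read from the brightest probe set. Of the 42 genes, 34 were highest at day 2, 7 at day 6 and 1 at day 15, while 32.2% of all genes were highest at day 2. The lowest value was at day 9 in 24 genes, at day 15 in 12, at day 12 in 5 and at day 2 in 1, while 13.0% of all genes were lowest at day 9 and 23.7% at day 15. RNA was taken from whole dishes, so a smaller share of cells in S phase and less of these transcripts per cell cannot be told apart.

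**Figure D3:**
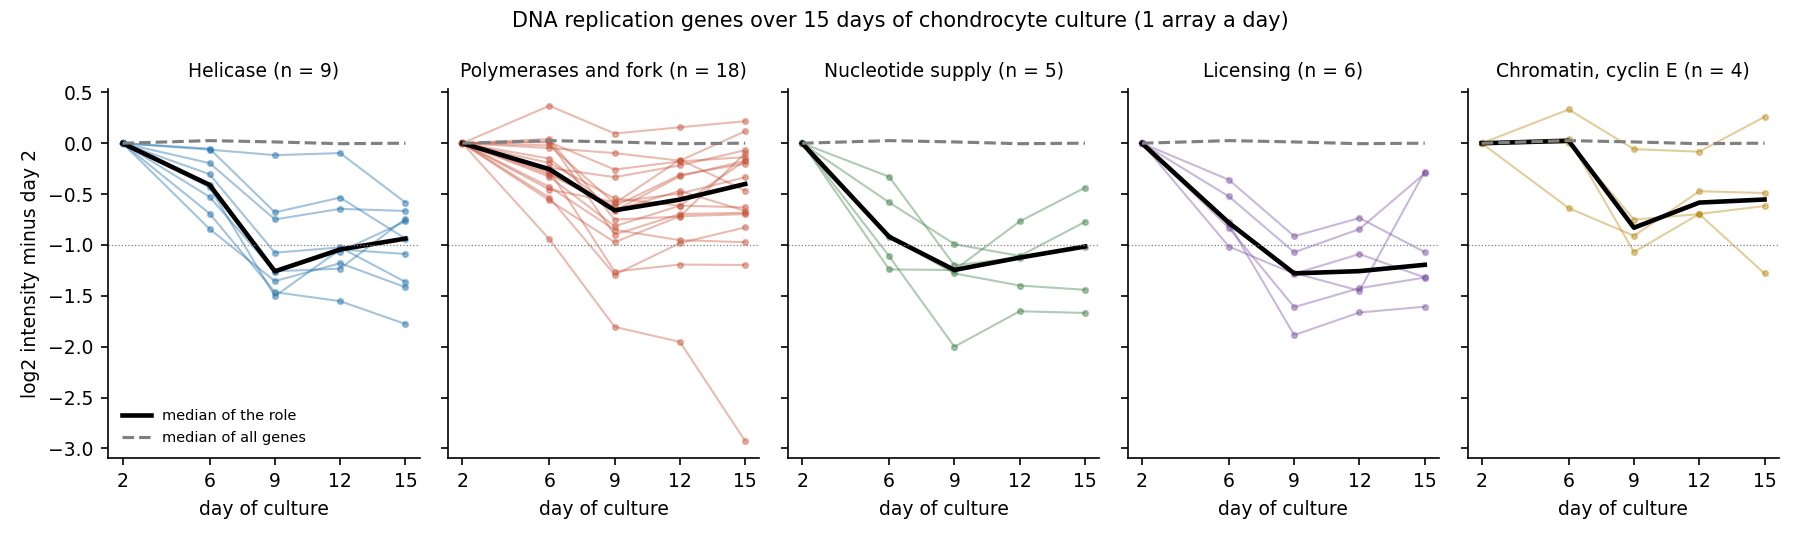
Log2 intensity minus day 2 (vertical axis) by day of culture for each replication gene (thin lines), in 5 panels by role, with the median of the role (thick line) and of all genes (dashed), 1 array a day. The dotted line marks 2-fold lower than day 2. The helicase, nucleotide supply and licensing medians pass it at day 9 (-1.26, -1.25 and -1.28), and the other medians do not (-0.66 and -0.83).

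The helicase genes were lower at day 9 in all 9 cases, with 6 of 9 past 2-fold and a median log2 difference of -1.26. Over all genes, 49.2% were below day 2 on that day and 10.3% were 2-fold lower. The Mcm2 to Mcm7 proteins form the ring that unwinds DNA. In order of days 2, 6, 9, 12 and 15, Mcm2 had intensities of 2285, 1415.5, 828.6, 779.0 and 666.9, Mcm5 had 5739, 3199.9, 2243, 2534 and 2152 and Mcm7 had 6533.5, 5289, 3099.6, 3213 and 2539. By these probe sets the highest value of the 3 genes was at day 2 and the lowest at day 15, when Mcm2 was 3.43-fold, Mcm5 2.67-fold and Mcm7 2.57-fold lower than at day 2. Their other probe sets above the floor on every day were also highest at day 2, but not all were lowest at day 15. The other Mcm2 probe set had 671.4 at day 9 and 898.5 at day 15 (log2 difference of -1.18 at day 15 minus day 2), 1 of Mcm7 was lowest at day 9 (1492), and 1 of Mcm5 at day 12 (608.9). Mcm3 had 1880.5, 1393, 663.3, 912.0 and 884.3 and Mcm6 had 3650.5, 2533, 1521, 1745.5 and 2145 on the same days. Both were lowest at day 9, 2.83-fold and 2.4-fold lower than at day 2, by these probe sets. The other Mcm3 probe sets gave log2 differences of -0.67, -1.33, -1.34 and -0.40 at day 9 minus day 2. At day 15 minus day 9 the log2 difference of Mcm6 was 0.50, and 0.13 by its other probe set above the floor. That of Mcm3 was 0.41 by the brightest, but -0.05 to -0.45 by its other 4 probe sets, so no return of Mcm3 was shared between them.

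Mcm4 stood apart from the other ring subunits. Its intensities were 3155, 3019.6, 2909, 2949 and 2106, so that it was 1.08-fold lower at day 9 and 1.5-fold lower at day 15 than at day 2. Another Mcm4 probe set gave log2 differences of -0.40 and -0.96 for the same comparisons, also short of 2-fold. The factors that join the ring were lower as well: Cdc45, which completes the working helicase, had 623.7, 469.6, 260.6, 265.5 and 373.0, with its lowest value at day 9 (2.39-fold lower than day 2). Gins1 and Gins2 encode subunits of the GINS complex, which also joins it. Gins1 had 735.4, 708.8, 459.3, 507.7 and 384.1, lowest at day 15, and Gins2 had 1214, 1060.0, 722.2, 776.0 and 765.2, lowest at day 9. Neither GINS gene reached 2-fold.

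The 18 polymerase and fork genes differed less, with 3 of 18 past 2-fold at day 9 and a median log2 difference of -0.66. Over all genes 10.3% were 2-fold lower, a share not far from that count, and the median was 0.01. Fen1, the nuclease that trims the flaps of Okazaki fragments, had 3199, 1663, 915.6, 826.4 and 420.5 from day 2 to day 15. By this probe set, of a kind that can match several transcripts, it was lower on each day than on the one before and had the largest difference of all 42 genes at day 15, being 3.49-fold lower at day 9 and 7.61-fold lower at day 15 than at day 2. Its other probe set gave log2 differences of -2.16 and -2.24, beside -1.80 and -2.93 by the brightest, and had 337.8, 432.1 and 321.2 at days 9, 12 and 15, with no steady course. Prim1, the catalytic subunit of primase, had 3348, 2313, 1367, 1697 and 1887, and Pola2, a subunit of polymerase alpha, had 740.9, 615.3, 309.1, 324.2 and 323.3. Both were lowest at day 9, 2.45-fold and 2.4-fold lower than at day 2. At day 15 they were 1.77-fold and 2.29-fold lower than at day 2, but the other Prim1 probe set was level with day 9 there (959.3 at day 15, against 960.8 at day 9).

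Pole, the catalytic subunit of the leading-strand polymerase epsilon, had 785.9, 532.4, 400.5, 478.0 and 484.8 and was 1.96-fold lower at day 9 than at day 2. At the other end were Rpa3, the smallest subunit of the protein that coats single-stranded DNA, and Prim2, the partner of Prim1. Rpa3 had 1788, 1730.0, 1672, 1588 and 1940.4 and Prim2 had 748.0, 965.5, 799.2, 833.8 and 869.0 in order of day, and their log2 differences from day 2 lay between -0.17 and 0.37 on every later day. Prim2 was the only replication gene above its day 2 value at day 9, and its other probe set was below it there (log2 difference -0.43).

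The remaining fork genes lay between these, with log2 differences at day 9 minus day 2 of -0.90 for Rfc5, -0.58 for Rfc4, -0.33 for Rfc2 and -0.26 for Rfc3. These encode subunits of the clamp loader. Pcna, the sliding clamp it loads, had 9038 at day 9 and 10276.5 at day 15, against 15914 at day 2, which is 1.76-fold and 1.55-fold lower. Pola1, the catalytic subunit of polymerase alpha, differed by -0.85, Pole2, of polymerase epsilon, by -0.66, and Pold1 and Pold2, of the lagging-strand polymerase delta, by -0.54 and -0.62. Lig1, which seals the fragments, differed by -0.75, and the single-strand binding subunits Rpa1 and Rpa2 by -0.66 and -0.59. At day 15, Lig1 was at 928.1, against 993.0 at day 2. By the brightest probe sets, Pold1, Pold2, Pole2, Rfc2 and Rfc3 had log2 differences of -0.20 to -0.07 at day 15 minus day 2. For that comparison the other Pold1 probe set gave -0.61, and those of Rfc2 gave 0.24 and 0.29.

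Nucleotide supply genes were lower at day 9 in all 5 cases (49.2% of all genes were), with a median log2 difference of -1.25. Of the 5, 4 were 2-fold lower, where 10.3% of all genes were. Ribonucleotide reductase, which makes deoxynucleotides, has Rrm1 as its large and Rrm2 as its small subunit. Rrm2 had 19427.5, 8997, 4858, 6184 and 6112 from day 2 to day 15 and Rrm1 had 6163, 4119, 3100.0, 2859 and 3606. Rrm2 was 4.0-fold lower at day 9 and 3.18-fold lower at day 15 than at day 2, the largest difference of the list at day 9, and its other 2 probe sets gave log2 differences of -1.52 and -2.23 at day 9. Rrm1, 1.99-fold lower at day 9, was just short of the threshold, and another of its probe sets was just past it (-1.05).

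Tk1, the thymidine kinase of cycling cells, had 2872, 2285.5, 1249.7, 1317 and 1421, and Dut, which removes dUTP, had 3120.3, 1649.9, 1285, 1183 and 1149.5. Tk1 was lowest at day 9 (2.3-fold lower than day 2) and Dut at day 15 (2.71-fold), but another Dut probe set gave a log2 difference of only -0.10 at day 15 while matching at day 9 (-1.40). Tyms, thymidylate synthase, which makes thymidylate, had 193.3, 81.8, 81.5, 113.5 and 142.8. Its day 6 and day 9 values lie close to the floor, and another probe set gave a log2 difference of 0.29 at day 9 in place of -1.25, so its probe sets did not settle the direction of Tyms at day 9.

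**Figure D4:**
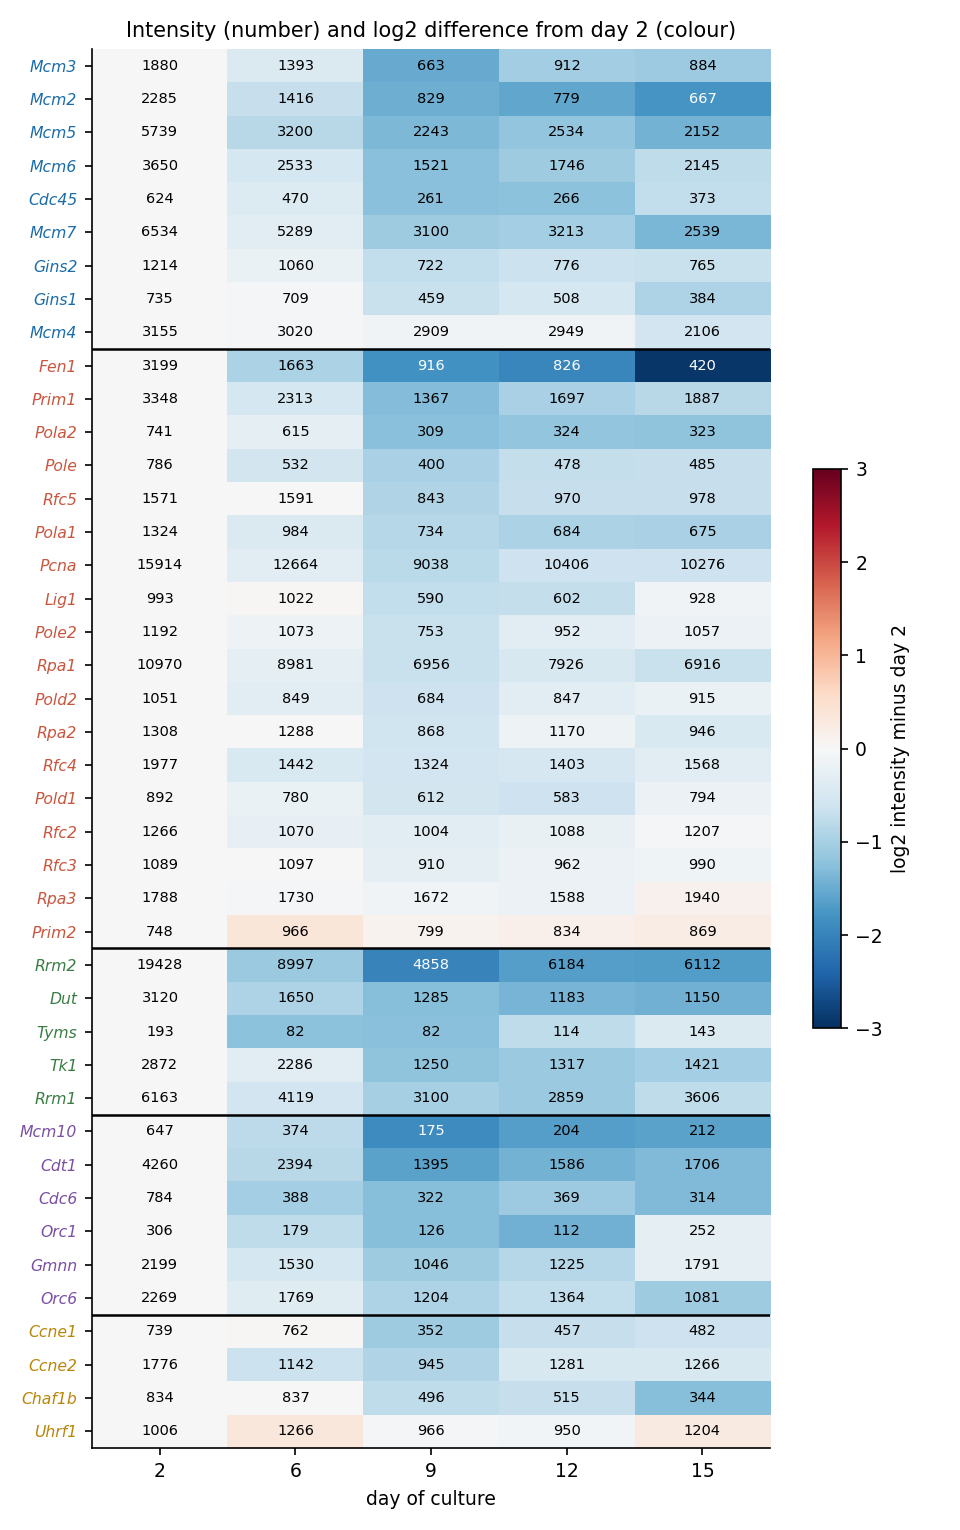
Intensity of each replication gene's brightest probe set (numbers, linear scale) by day of culture (columns), with the log2 difference from day 2 as colour (blue lower, red higher), 1 array a day. Rows are grouped by role (helicase, polymerases and fork, nucleotide supply, licensing, chromatin and cyclin E) and ordered by the day 9 difference. The day 9 column is the bluest for most genes, and Fen1 at day 15 (420.5, against 3199 at day 2) is the lowest relative to day 2.

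Licensing genes were lower at day 9 in all 6 cases (49.2% of all genes were), with a median log2 difference of -1.28 (-1.19 at day 15). Of the 6, 5 were 2-fold lower at day 9, where 10.3% of all genes were. Cdt1, the loading factor for the Mcm ring, had 4260.4, 2394, 1395, 1586.5 and 1706.5, and Mcm10, which helps start the loaded helicase, had 647.0, 373.6, 175.1, 204.2 and 212.4. Both were lowest at day 9, 3.05-fold and 3.69-fold lower than at day 2, and stayed 2-fold lower to day 15. Another Cdt1 probe set was lowest at day 15 (429.4, against 489.1 at day 9). Cdc6, the ATPase that loads the ring with Cdt1, had 784.4, 388.0, 322.3, 368.7 and 314.2, already 2.02-fold lower at day 6 than at day 2 and 2.5-fold lower at day 15. Orc6, a subunit of the origin recognition complex, had 2269, 1769, 1204, 1363.5 and 1081, and was 2.1-fold lower at day 15 than at day 2.

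Orc1 and Gmnn differed from the other licensing genes late in culture. Orc1, the largest subunit of the origin complex, had 306.3, 179.3, 126.5, 112.1 and 252.4 in order of day, and Gmnn, the inhibitor of Cdt1, had 2199, 1529.9, 1046, 1225 and 1791. At day 15 they were 1.21-fold and 1.23-fold lower than at day 2, after 2.42-fold and 2.1-fold at day 9. For Orc1 the other probe set did not show this return, with a log2 difference at day 15 minus day 2 of -1.77 beside -0.28. Gmnn had no other probe set.

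The 4 measured genes of chromatin assembly and cyclin E had a median log2 difference of -0.83 at day 9. Chaf1b, the middle subunit of chromatin assembly factor 1, had 834.4, 837.0, 496.0, 514.8 and 343.6. It was 2.43-fold lower at day 15 than at day 2 by this probe set, but another gave a log2 difference of 0.09. Uhrf1, which helps copy DNA methylation to the new strand, had 1006, 1266, 966.2, 949.9 and 1204, with log2 differences from day 2 between -0.08 and 0.33. Of the cyclin E genes, Ccne1 had 739.2, 761.7, 352.2, 456.6 and 481.9, and Ccne2 had 1776, 1142, 945.1, 1281 and 1266, both lowest at day 9 (2.1-fold and 1.88-fold lower than at day 2). At day 6, Ccne1 was near its day 2 value by this probe set, and Ccne2 was nearer to its day 9 value. The other Ccne1 probe set was already lower at day 6 (526.5, against 723.9 at day 2), so this contrast was not shared between them.

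By the brightest probe sets the list was nearer to its day 2 level at day 15 than at day 9, and other probe sets bore this out only in part. At day 15, 30 of 42 genes were above their day 9 value, where 5311 of all 11075 genes were. The median log2 difference was 0.22, beside -0.02 over all genes. Of 31 other probe sets above the floor on both days, 17 were above day 9, with a median of 0.08, and 18 had the direction of the brightest. No gene was 2-fold higher than at day 9, where 5.00% of all genes were, and Fen1 alone was 2-fold lower (2.18-fold, beside a log2 difference of -0.07 by its other probe set), where 4.05% of all genes were. The largest returns at day 15 minus day 9 were 1.00 in Orc1 (just short of 2-fold), 0.81 in Tyms, 0.78 in Gmnn and 0.65 in Lig1. Other probe sets reversed the first 2 of these, with -0.44 in Orc1 and -0.60 in Tyms, and Gmnn and Lig1 had no other. Against day 12, Orc1 alone was 2-fold higher at day 15 by the brightest probe set, where 4.23% of all genes were, and its other probe set was lower (log2 difference -1.33). By role, the median log2 difference at day 15 minus day 9 was -0.06 for the helicase, 0.22 for polymerases and fork, 0.22 for nucleotide supply, 0.28 for licensing and 0.37 for chromatin and cyclin E.

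Other probe sets of the same gene give the only check of a value on these arrays, and they share the array, so variation between dishes or arrays is not in them. At day 9 against day 2, 31 other probe sets of 24 genes were above the floor on both days, and 28 had the same direction as the brightest. Of 19 other probe sets of genes counted as 2-fold lower, 18 had the same direction and 14 also reached 2-fold. The SD of a log2 difference from 1 probe set was 0.391. At day 15 against day 2, 27 of 32 other probe sets had the same direction, 11 of 15 reached 2-fold, and the SD was 0.386. Besides the cases above, Pold1 (-1.44 by its other probe set beside -0.54) and Ccne1 (-1.99 beside -1.07) were lower by the other probe set at day 9, and 1 other Rfc2 probe set was higher than at day 2 (0.95).

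**Figure D5:**
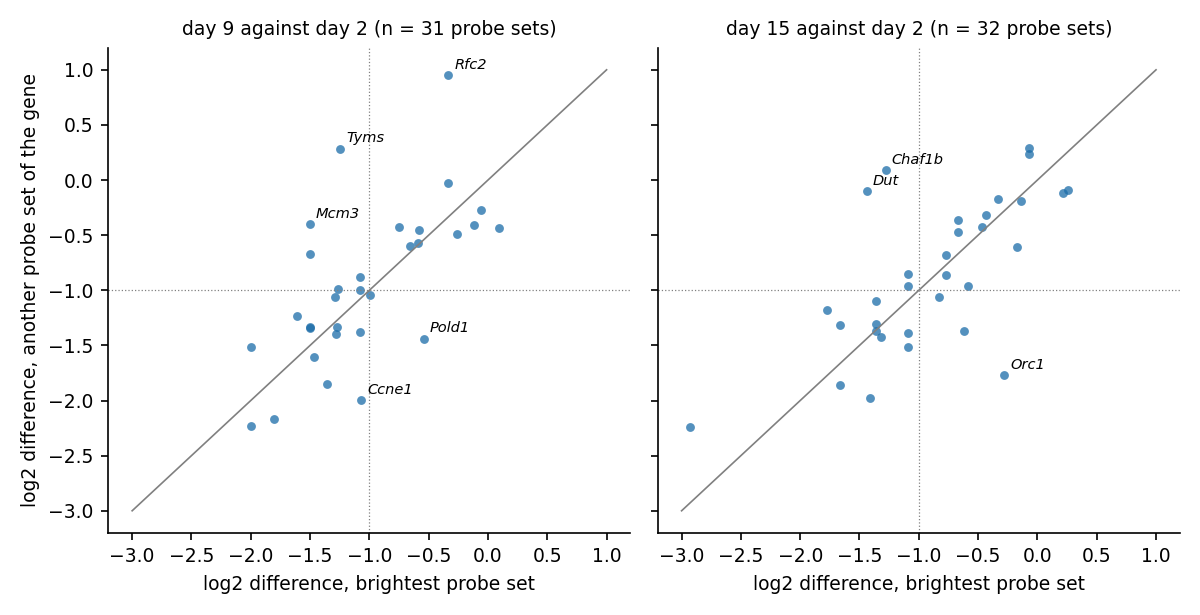
Log2 difference from day 2 by another probe set of a gene (vertical axis) against that by its brightest probe set (horizontal axis), for probe sets above the floor on both days, at day 9 (left, 31 probe sets) and day 15 (right, 32 probe sets). The diagonal is equality and dotted lines mark 2-fold lower. Most points lie near the diagonal below 0, and the named genes are among those far from it.

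The linear trend of log2 intensity on day was the main test. It was fitted to all 5 arrays with limma, and 0 of the 42 genes reached an adjusted p under 0.05 (limma, Benjamini-Hochberg over 11075 genes), where 0% of all genes did so falling and 0.0542% rising. At an unadjusted p under 0.05, 15 of the 42 had a falling trend and 0 a rising one, where 12.7% of all genes had a falling one. The slope was negative in 39 of 42, and in 5590 of all 11075 genes. Fen1 had the lowest adjusted p, 0.0651, with a slope of -0.22 ± 0.024 log2 units a day (SE), and Mcm2 had 0.0734 with -0.14 ± 0.026. A straight line does not describe a course that is lowest at day 9 and then levels off. In an alternative test, with the logarithm of the day in place of the day, 9 genes passed, where 4.30% of all genes did so falling. On that scale the single day 2 array lies far from the others and largely sets the slope. The test was not repeated without it. The 9 genes were Fen1, Mcm2, Dut, Mcm5, Mcm10, Rrm2, Cdt1, Cdc6 and Mcm7, with limma adjusted p from 0.0233 in Fen1 to 0.0496 in Mcm7.

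Genes with and without an E2F match in the promoter windows had similar differences at day 9 minus day 2. Of the 13 with a match, 7 were 2-fold lower and the median log2 difference was -1.08, with a range from -1.61 in Cdt1 to -0.06 in Uhrf1. Of the 21 measured genes whose promoter had no match, 11 were 2-fold lower and the median was -1.07, with a range from -2.0 in Rrm2 to -0.10 in Rpa3. Of the 2 genes whose promoters are printed at full length, Rrm2, with no E2F match, was 4.0-fold lower at day 9 than at day 2 and Mcm6, with 3 matches, 2.4-fold lower. These 2 were picked as genes over 2-fold lower, and a gene without a match may hold other forms of the motif. The part of E2F in these differences was not tested.

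Other genes of the same processes were read from lists that hold none of the 43. Of 33 further replication genes (accessory factors of origins, forks and repair of RNA primers), 5 were 2-fold lower at day 9 than at day 2 and 0 higher, with a median log2 difference of -0.44. Over all genes 10.3% were lower and 15.1% higher by that measure, and 11.6% and 16.2% at day 15. Orc2, another subunit of the origin complex, had 2036, 799.3, 552.8, 789.3 and 443.9 from day 2 to day 15 (day 9 was 3.68-fold lower than day 2), and Dbf4, the activator of the Cdc7 kinase that fires origins, had 3108, 1907, 1137, 1116 and 996.9 (2.73-fold). Wdhd1, which ties the helicase to polymerase alpha, had 1003, 856.7, 460.6, 419.1 and 533.7. Chtf18, a subunit of an alternative clamp loader, had 267.2 at day 2 and was under the floor at days 9 and 12, so that day 9 was at least 3.65-fold lower than day 2. Dna2, a nuclease of the lagging strand, chosen after its value was seen, was the fifth (log2 difference -1.06). At day 15, 6 of the 33 were 2-fold lower and 1, Pold4, the small subunit of polymerase delta, also named after its value was seen, was higher (2544 at day 15, against 910.1 at day 2). An E2F match stood in the promoters of 10 of 31 of these genes (32.3%).

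Nucleotide genes outside the list were nearer to level, with a median log2 difference at day 9 minus day 2 of -0.13. In that comparison 1 of 10 was 2-fold lower and 0 higher, beside 10.3% and 15.1% of all genes. That gene was Dctpp1, which removes unwanted deoxynucleotides (1847, 1160.0, 890.4, 1015 and 1159 in order of day). Nme1, a nucleoside diphosphate kinase, had 16810.4, 8949, 9539.5, 9973 and 10729.7, lower at day 6 and nearly level after it. Dguok and Tk2, the deoxynucleoside kinases of mitochondria, went the other way. Dguok had 581.7, 884.3, 1058, 989.6 and 1243, and Tk2 had 175.9, 367.0, 304.6, 293.5 and 303.1, 1.82-fold and 1.73-fold higher at day 9 than at day 2.

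Mitosis genes, which act after S phase, were also lower. All 28 measured were below day 2 at day 9, 19 of them by 2-fold or more, with a median log2 difference of -1.19. At day 15, 13 were 2-fold lower (median -0.89). Of all genes, 49.2% were below day 2 at day 9, and 10.3% and 11.6% were 2-fold lower at days 9 and 15. Ube2c, an enzyme that marks mitotic cyclins for destruction, had 7623, 4583, 1975, 2002 and 2336, and Aurka, a spindle kinase, had 2421, 1319.5, 722.2, 718.1 and 877.0. Prc1 and Anln act in cytokinesis. Prc1 had 3181, 1622, 938.5, 966.6 and 1386, and Anln had 8949, 4185.5, 2905, 2552 and 4409.8. These 4 genes were 3.08-fold to 3.86-fold lower at day 9 than at day 2. Of the best known proliferation markers, Mki67 had 3989, 3771, 2286, 2230.4 and 2465.5, Top2a had 4951, 3682.5, 2412, 2542 and 2880.1 and Cdk1 had 7818, 5592, 3271, 3626 and 4836, lower by 1.75-fold, 2.05-fold and 2.39-fold at day 9. Among mitosis genes with a promoter in the table, an E2F match stood in 1 of 25 (4.0%) and a CHR match in 19 of 25 (76.0%), beside 13 and 6 of the 35 replication genes.

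The arrays themselves were alike in overall level, with median intensities of 106.4 to 117.7 and 58.8% to 61.9% of probe sets at or above the floor. The 3'-to-5' ratio of the control probe sets is a sign of RNA quality. For Actb it was 1.17, 1.25, 1.27, 1.23 and 1.26 in order of day, highest at day 9. For Gapdh it was 0.779, 0.707, 0.616, 0.627 and 0.798 in order of day, lowest at day 9. These controls thus went opposite ways on the day the replication genes were lowest. Of 11 housekeeping genes, 1 was 2-fold lower at day 9 than at day 2, where 10.3% of all genes were. The median log2 difference of the 11 was -0.25. The part of RNA quality in the results was not tested.

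Marker levels of several cell types differed over the same days. Sums run over the genes of a list that had a probe set, and a gene is kept if it passed the intensity filter. The chondrocyte list was kept whole (14 of 14 genes), with summed intensities, in order of day, of 159501, 181671, 108894, 52231 and 64724. Within it, Comp (12248 at day 15, against 812.7 at day 2) and Matn1 (744.9, against 212.7) were higher at day 15. The other chondrocyte markers were lower. The summed intensity of 10 of 10 fibroblast markers was 38073, 64999, 139545, 163857 and 194556, that of osteoblast markers (5 of 8 kept) 570.4, 1190.2, 15728, 30992 and 43143, and that of adipocyte markers (5 of 8 kept) 2071, 3497, 25550.2, 59012 and 33745, with Lep under the floor on every day. Epithelial markers (4 of 6 kept) summed to 678.0 at day 15, against 2797 at day 2. Most of that difference was in Krt18 (103.2, against 2052 at day 2), and Epcam was higher at day 15 (306.9, against 232.9). Of the other lists, 5 of 8 macrophage markers (sum 681.0 to 1599.5, Tyrobp under the floor on every day), 2 of 8 muscle markers (923.1 to 1938, Myh3 under the floor) and 3 of 6 Schwann cell markers (1648 to 3422) were kept. None of 7 endothelial (sum 182.3 to 392.8, Pecam1, Tek and Vwf under the floor) or 6 erythroid markers (sum 118.4 to 313.5, Alas2 under the floor) was kept. The share of each cell type in a dish was not measured, and its part in the replication gene values was not tested.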

How the data were processed

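Total RNA was hybridised to single-colour oligonucleotide arrays, 1 for each of 5 culture days. The deposited values were probe-set intensity values, linear in scale, and the submitters' processing notes name MAS5 without a version. On every array the mean after trimming 2% at each end was 500, so the authors had scaled the arrays alike, which hides any change common to most transcripts. The number of arrays limits precision.

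Of 45101 probe sets, 64 were controls and 34945 carried 1 symbol. Symbols were updated through the RefSeq gene table (GRCm38.p6). Intensities below 73.1, the 40th percentile, were set to that floor before log2. A gene was read from its brightest probe set and kept if its mean reached 105.9, the median. Folds understate differences of dim genes.

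The trend was fitted with limma 3.58.1 (lmFit, eBayes, two-sided, 3 residual and 2.83 prior degrees of freedom) in R 4.3.3 and tested on simulated data. Python 3.11.15, pandas 2.3.3, numpy 2.4.6 and matplotlib 3.10.9 did the rest. The genes and lists were chosen with earlier results of these data known. All 43 genes are named. Daily values are given for every helicase, nucleotide supply, licensing, chromatin and cyclin gene, and for the 4 most and 2 least different polymerase genes. From each other list the 4 genes most different at day 9 and 8 well-known genes are named. Alternatives covered normalization, floor, pseudocount, probe-set choice, filter, baseline day, time scale and each day left out.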

Additional observations from a re-analysis of the deposited data

How the results depend on the processing

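Of 219 recomputed values of 22 results, 0 reversed, 15 moved and 204 moved less than the limit (0.2 in a median log2 difference, 1.5 times in a count). Only a median could be labelled reversed. The counts of 2-fold higher genes and of rising trends were 0 in every setting. The cause of the moves was not tested. Within that limit, the mean over probe sets gave 13 genes 2-fold lower than day 2 at day 9 (against 19), 11 at day 12 (against 16) and 10 at day 15 (against 14). Genes 2-fold lower at day 6 than at day 2 numbered 1 with a pseudocount in place of the floor, against 3. With day 6 as the baseline, 3 genes were 2-fold lower at day 9 (median log2 difference -0.53), 1 at day 12 (-0.45) and 4 at day 15 (-0.35). Of all 11075 genes, 450, 550 and 682 were, shares not far from those counts. With the mean over probe sets, or without the probe sets that can match several transcripts, 0 genes were 2-fold lower at day 15 than at day 9, against 1. The falling linear trend (limma, adjusted p under 0.05) was called in 1 gene with the pseudocount, 2 with a filter at the 70th percentile (39 genes kept) and 9 on the logarithm of the day, against 0. Leaving out 1 day at a time from the limma trend on day gave 0 calls each time. At an unadjusted p under 0.05 (limma), 4 (without day 2) to 20 (without day 15) genes were falling. The trend on the logarithm of the day was not refitted this way. The helicase median at day 9 minus day 2 was -0.75 with the mean over probe sets (against -1.26), and the licensing median -1.01 with that mean and -1.07 with the pseudocount (against -1.28). The mean takes in probe sets under the floor on every day (8 of 89), which enter with a log2 difference of 0. Over 10 settings, 9 genes (Mcm2, Mcm3, Mcm5, Prim1, Fen1, Rrm2, Tk1, Dut and Cdc6) were 2-fold lower at day 9 in every one, 12 in some and 21 in none, and 5 (Mcm4, Prim2, Rfc2, Rpa3 and Uhrf1) changed sign. At day 15 these numbers were 6, 10, 26 and 3. No paired analysis was possible because each day has 1 array. Genes near the floor, such as Tyms, are limited by signal over background.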

Other observations

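Regulators of the E2F and retinoblastoma pathway, which sets the entry to S phase, were read from a list of 29 measured genes. At day 9 against day 2, 3 were 2-fold lower and 3 2-fold higher, where 10.3% and 15.1% of all genes were, with a median log2 difference of -0.01. These counts are near or below the shares over all genes. Cdkn1c, an inhibitor of cyclin-dependent kinases, had intensities of 679.7, 5188, 6494, 3959 and 2974.5 in order of days 2, 6, 9, 12 and 15, 9.55-fold higher at day 9 than at day 2. Cdkn2b, an inhibitor of the cyclin D kinases, had 375.2, 986.9, 2175, 2170.4 and 2872, 5.8-fold higher at day 9. Both were highest away from day 2, Cdkn1c at day 9 and Cdkn2b at day 15. Cdkn1a, an inhibitor of the same family as Cdkn1c, went the other way with 7765, 3172, 1633, 2524 and 4193.5, 4.75-fold lower at day 9 than at day 2 and lowest on that day.

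E2f8, a repressor of the E2F family, had 853.8, 413.2, 178.4, 277.3 and 316.1, 4.79-fold lower at day 9 than at day 2. E2f1, an activator of the family, had 382.0, 457.2, 197.0, 295.9 and 510.9, lowest at day 9 and highest at day 15. Rb1, the retinoblastoma protein gene, had 656.3, 703.5, 689.0, 978.6 and 875.2, and at day 9 it was level with day 2. Ccnd1, cyclin D1, had 10335, 5718, 7825, 6227 and 7985, and Myc, a growth-promoting transcription factor, had 1916, 1019, 1177, 776.9 and 1039, both highest at day 2. The remaining genes past 2-fold at day 9 were Cdk6, a cyclin D kinase (log2 difference -1.14), and Rbl2, a relative of Rb1 (1.13), named after their values were seen. These differences have no replicate check.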
